A study of Homo sapiens with 9 samples.

Results

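The genes described here form the MYC, MAX and MXD network of transcription factors: MYC, MAX, MXD1, MXD3, MXD4, MXI1, MNT, MGA, MLX and MLXIP. They were taken by gene symbol from the deposited tables, which list 26485 genes, and all 10 were found and had enough reads to be tested. The cells sequenced were MDA-MB-231, a human cell line derived from a triple-negative breast cancer and grown in DMEM with serum. All cells carried an shRNA that they expressed stably. The control group expressed a nonspecific (NS) shRNA, and the other groups expressed ASAH1 shRNA #1 or ASAH1 shRNA #2, independent hairpins against ASAH1, the lysosomal acid ceramidase that cleaves ceramide into sphingosine and a fatty acid. Each group had 3 libraries, which the study calls biological replicates. Whether the cells were clones or pools, and how separately the replicates were grown, is not given in the sources used here, so the p-values measure the spread between these libraries.

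MYC is a basic helix-loop-helix leucine zipper factor that binds DNA as a dimer with MAX, at E-box sequences such as CACGTG, and activates genes of ribosome biogenesis, nucleotide synthesis and growth. MXD1, MXD3, MXD4, MXI1 and MNT also pair with MAX and bind the same sequences, but bring the SIN3 and histone deacetylase corepressors, so they are known as antagonists of MYC. MGA is a large factor that pairs with MAX inside a Polycomb complex. MLX is a MAX-like partner shared by MXD1, MXD4 and MNT and by MLXIP (MondoA), which responds to glucose-derived metabolites and controls TXNIP and ARRDC4.

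The E-box itself is present near the start of some of these genes. In RefSeq promoter windows of GRCh38.p14, which run from 250 bases before to 50 bases after the start, CACGTG was searched for. The motif reads the same on both strands. Of the 10 genes, 9 had a window, and MYC had none. The motif was in the window of 3 of these 9 genes, MXD4, MNT and MLX, against 8.77% of all 27305 genes with a window and 12.5% of such genes that were tested in both comparisons. Counted by window, 7.26% of all 35116 windows held it. The stretches of 80 bases around it are printed here, because they are the sites in the network's own genes that its dimers could recognise, with those of ODC1, a MYC target, and ARRDC4, a MondoA and MLX target, beside them. CACGTG is in capitals, and each stretch is read 5′ to 3′ on the strand of its gene.
MXD4, chr4:2262280-2262359, minus strand: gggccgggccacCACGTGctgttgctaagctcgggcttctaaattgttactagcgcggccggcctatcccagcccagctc
MNT, chr17:2401211-2401290, minus strand: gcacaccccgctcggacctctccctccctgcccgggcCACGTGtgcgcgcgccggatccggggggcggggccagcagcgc
MLX, chr17:42567013-42567092, plus strand: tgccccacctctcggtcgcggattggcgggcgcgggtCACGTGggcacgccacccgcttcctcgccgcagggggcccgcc
ODC1, chr2:10448013-10448092, minus strand: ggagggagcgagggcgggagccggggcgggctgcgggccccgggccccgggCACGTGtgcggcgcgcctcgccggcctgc
ARRDC4, chr15:97960456-97960535, plus strand: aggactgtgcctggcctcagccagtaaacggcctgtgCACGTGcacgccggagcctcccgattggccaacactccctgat
The first base of the motif lies 238 bases upstream of the RefSeq start in MXD4, 193 in MNT, 50 in MLX, 29 in ODC1 and 210 in ARRDC4. The windows of MAX, MXD1, MXD3, MXI1, MGA and MLXIP do not hold these 6 letters. A match describes the sequence, and no binding was measured.

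Values are normalized counts, read counts divided by a size factor for each library. Each ASAH1 shRNA was normalized separately with the same 3 NS shRNA libraries, so these have slightly different values in the comparison with each hairpin, and the comparisons share their controls. Reads on genes per library ranged from 30989598 to 34867548 with NS shRNA, from 23806003 to 39791698 with ASAH1 shRNA #1 and from 35653318 to 49659106 with ASAH1 shRNA #2. ASAH1 fell with each hairpin, by 1.76 on the log2 scale with ASAH1 shRNA #1 (standard error, SE, 0.05, limma adjusted p = 9.49e-09) and by 2.63 with ASAH1 shRNA #2 (SE 0.06, limma adjusted p = 5.42e-10). The libraries carried markers of a mesenchymal line, with VIM at 1257 to 2074 and CD44 at 705 to 861 CPM (reads scaled to the library size). AXL was at 977 to 1331 CPM and EGFR at 83.9 to 279 CPM. Of the receptors that define a triple-negative line, ESR1 and PGR had at most 2 reads. ERBB2, the HER2 gene, was not absent, at 59.3 to 102 CPM. Markers of other cells were low, with at most 8 reads of PTPRC and 3 of CD3E or CDH5, and PECAM1 at 3.02 CPM or less.

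Most genes in these cells differed between the groups, which sets the background for the network. With ASAH1 shRNA #1, 5 of the 10 genes were higher (MYC, MAX, MXD1, MNT and MGA) and 4 were lower (MXD3, MXD4, MXI1 and MLX), with an adjusted p below 0.05 from limma. Among all 14341 genes tested, 32.8% were higher and 33.3% lower, 66.1% in all. With ASAH1 shRNA #2, 4 were higher (MYC, MAX, MXD1 and MGA) and 4 lower (MXD3, MXD4, MXI1 and MLX), where 33.5% of 14250 genes were higher and 33.4% lower, 66.9% in all. Upper quartile rescaling changed the balance of all genes for that hairpin, from 4780 higher and 4758 lower to 4004 and 5522, and MYC, MAX, MXD1 and MGA stayed higher and MXD3, MXD4, MXI1 and MLX lower under it. A count of 4 or 5 of 10 in a direction lies close to these background shares, so the counts alone do not set the network apart. The same 4 genes rose with both hairpins and the same 4 fell with both, where 20% of all genes tested in both comparisons were higher in both and 20.5% lower in both. The median size of the log2 fold change, without its sign, was 0.57 for the network and 0.37 for all genes with ASAH1 shRNA #1, and 0.54 and 0.40 with ASAH1 shRNA #2. MLXIP passed in neither comparison.

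**Figure D1:**
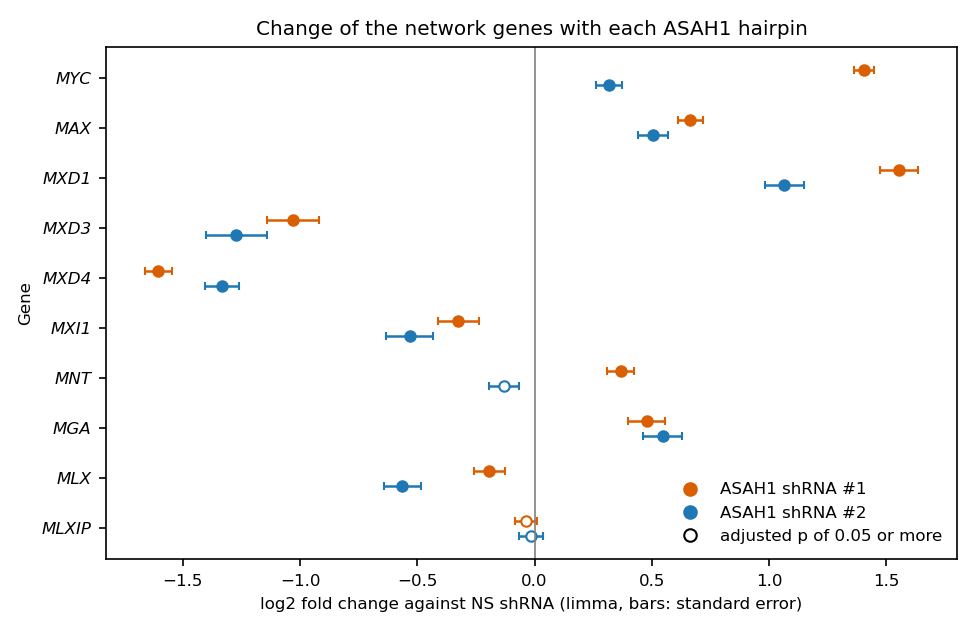
Log2 fold change of each network gene with ASAH1 shRNA #1 (orange) and ASAH1 shRNA #2 (blue) against NS shRNA, from limma on log2(normalized count + 1), with bars for the standard error and open circles for an adjusted p of 0.05 or more. MYC, MAX, MXD1 and MGA lie to the right and MXD3, MXD4, MXI1 and MLX to the left with both hairpins, and MYC shows the widest gap between the hairpins, 1.40 against 0.32.

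MYC was higher with each ASAH1 shRNA, far more with ASAH1 shRNA #1. The gene lies on chromosome 8 of hg38 from 127735434 to 127742951, on the plus strand. Its normalized counts were 5987.5, 6025 and 6275 in the NS shRNA libraries and 16411, 16086 and 15924 with ASAH1 shRNA #1. The groups lie far apart, and the libraries within each differ little. The log2 fold change of MYC was 1.40 (SE 0.04, limma adjusted p = 1.16e-08), which is 2.65-fold, and 94.0% of all genes tested changed by no more than this. In the comparison with ASAH1 shRNA #2, the NS shRNA libraries had 6461, 6539.9 and 6766 and the knockdown libraries 8214, 8670.4 and 7783. These groups do not overlap either, but the lowest knockdown library is 1017 above the highest control. There the log2 fold change was 0.32 (SE 0.06, limma adjusted p = 0.000500), or 1.25-fold, and 40.8% of all genes changed by no more. Values are relative to the reads on all genes, and in bulk RNA a change in every cell and a change in the number of cells that express a gene cannot be told apart.

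The direct comparison of the hairpins, by edgeR's quasi-likelihood test of the recovered reads in 9 libraries, put MYC at 492, 488 and 481 CPM with ASAH1 shRNA #1 and at 229, 242 and 217 CPM with ASAH1 shRNA #2. The log2 ratio of ASAH1 shRNA #2 to ASAH1 shRNA #1 was -1.10 for MYC (SE 0.05, edgeR adjusted p = 8.32e-09). ASAH1 was itself lower with ASAH1 shRNA #2, with -0.89 for that ratio (edgeR adjusted p = 6.84e-08), so the hairpin that left less ASAH1 RNA had the smaller rise of MYC. Of the relatives of MYC, MYCN had at most 5 reads in a library and MYCL at most 16, and neither reached the mean of 10 that the tests against NS shRNA required. MYC was thus the MYC-family gene with substantial reads in these cells.

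MAX, the partner of MYC and of the MXD proteins, also rose with each hairpin. It lies on chromosome 14 from 65006174 to 65102695, on the minus strand. The NS shRNA libraries had 2594.5, 2517 and 2774 normalized counts of MAX and the ASAH1 shRNA #1 libraries 4303, 4191 and 3999. All libraries with ASAH1 shRNA #1 were above all controls, and the log2 fold change was 0.66 (SE 0.05, limma adjusted p = 5.08e-06). The values with ASAH1 shRNA #2 were 3796.5, 4247 and 4063, against 2799.5, 2732.5 and 2991 in the controls. Again the groups did not overlap, with a log2 fold change of 0.51 (SE 0.06, limma adjusted p = 4.36e-05). The level of MAX was slightly lower with ASAH1 shRNA #2 than with ASAH1 shRNA #1, by a log2 ratio of -0.17 (edgeR adjusted p = 0.0223). That difference is a small one and lost its call without ASAH1 shRNA #1 replicate 1 (edgeR adjusted p = 0.0714), without ASAH1 shRNA #1 replicate 2 (0.0585) or without ASAH1 shRNA #2 replicate 1 (0.0998).

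The MXD genes, whose proteins compete with MYC for MAX, did not move as a group. MXD1 rose, while MXD3, MXD4 and MXI1 fell, with each hairpin. MXD1, on chromosome 2 from 69897688 to 69942945 on the plus strand, is the family member best known for its induction as cells stop dividing and differentiate. Its normalized counts were 374, 383 and 442 with NS shRNA and 1241, 1171 and 1108 with ASAH1 shRNA #1. The groups were 666 counts apart at their nearest, and the log2 fold change of 1.55 (SE 0.08, limma adjusted p = 3.54e-07) was the largest rise in the network with that hairpin. MXD1 had 899, 916 and 889.7 with ASAH1 shRNA #2, against 403, 415 and 477 in the controls. These groups were also well apart, with a log2 fold change of 1.06 (SE 0.08, limma adjusted p = 1.59e-06). The rise was smaller than with the other hairpin, by a log2 ratio of -0.50 (edgeR adjusted p = 5.74e-05). An exon of MXD1 overlaps SNRNP27, a splicing factor gene on the same strand, and reads there cannot be assigned with certainty. SNRNP27 was lower with ASAH1 shRNA #1 (log2 fold change -0.20, limma adjusted p = 0.0250) and had -0.13 with ASAH1 shRNA #2 (limma adjusted p = 0.155).

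MXD4 showed the largest fall of the network. The gene is on chromosome 4 from 2247432 to 2262109, on the minus strand, and is typically expressed in resting and differentiating cells. Its normalized counts were 2303.5, 2225 and 2100.4 with NS shRNA and 709, 733 and 733 with ASAH1 shRNA #1. Every knockdown library was at least 1367 counts below every control, and the 3 differed by no more than 24.7. The log2 fold change of MXD4 was -1.61 (SE 0.06, limma adjusted p = 3.19e-08), a 3.04-fold lower level, and 95.7% of all genes changed by no more. In the ASAH1 shRNA #2 libraries MXD4 had 975, 876 and 995, against 2486, 2415 and 2265, and these groups were likewise far apart. The log2 fold change of -1.33 (SE 0.07, limma adjusted p = 1.34e-07) corresponds to a 2.52-fold lower level. MXD4 was the 1 gene of the network that was higher with ASAH1 shRNA #2 than with ASAH1 shRNA #1, by a log2 ratio of 0.26 (edgeR adjusted p = 0.00395). Among all genes, 31.4% were higher and 32.5% lower in that comparison of the hairpins. A microRNA gene, MIR4800, lies within its exons on the same strand.

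MXD3, which unlike its relatives is associated with proliferating cells, lies on chromosome 5 from 177301461 to 177312757 on the minus strand. It had 937, 902 and 767 normalized counts with NS shRNA and 365, 436 and 476 with ASAH1 shRNA #1, so the libraries of a group spread more than for MXD4. The groups did not overlap, and MXD3 fell by 1.03 on the log2 scale (SE 0.11, limma adjusted p = 3.03e-05). The other hairpin gave 372, 328 and 472 against 1011, 979 and 827, again with no overlap, and the log2 fold change was -1.27 (SE 0.13, limma adjusted p = 1.07e-05). Between the hairpins, its log2 ratio was -0.25 (SE 0.14, edgeR adjusted p = 0.141), and the libraries of the hairpins overlapped. That ratio rested on single libraries: it was -0.41 without ASAH1 shRNA #2 replicate 3 (edgeR adjusted p = 0.0162), -0.14 without ASAH1 shRNA #2 replicate 2 (0.408) and -0.16 without ASAH1 shRNA #1 replicate 3 (0.377). MXD3 shares exon sequence on the same strand with RAB24, a small GTPase gene, which was lower with ASAH1 shRNA #1 (log2 fold change -0.36, limma adjusted p = 0.0159) and had -0.19 with ASAH1 shRNA #2 (limma adjusted p = 0.230). The libraries of RAB24 overlapped between NS shRNA and each hairpin, and the effect of the shared sequence on the values of MXD3 was not tested.

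MXI1, also called MXD2, is on chromosome 10 from 110207605 to 110287365 on the plus strand, and changed least of these 4 genes. The NS shRNA libraries had 2114, 2175 and 2598 normalized counts and the ASAH1 shRNA #1 libraries 1901, 1908.5 and 1672. The highest knockdown library was 206 below the lowest control, while the controls themselves spread over 484. MXI1 was lower by a log2 fold change of -0.33 (SE 0.09, limma adjusted p = 0.00798). The ASAH1 shRNA #2 libraries had 1617, 1963 and 1568 against 2281, 2361 and 2801, and the log2 fold change was -0.53 (SE 0.10, limma adjusted p = 0.000819). The ratio of the hairpins, -0.22 on the log2 scale, did not pass (edgeR adjusted p = 0.0794). It passed when a single library was left out, either NS shRNA replicate 3 (edgeR adjusted p = 0.0474), ASAH1 shRNA #1 replicate 3 (0.0431) or ASAH1 shRNA #2 replicate 2 (0.0102).

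The broadly expressed antagonist MNT behaved differently with the hairpins. It is on chromosome 17 from 2384073 to 2401104, on the minus strand. The NS shRNA libraries had 991, 945 and 955 normalized counts and the ASAH1 shRNA #1 libraries 1257, 1187 and 1285. All knockdown libraries were above the controls, and MNT rose by a log2 fold change of 0.37 (SE 0.06, limma adjusted p = 0.000375). The ASAH1 shRNA #2 libraries had 956, 965 and 933, below the 1069, 1026 and 1029 of the controls, but the log2 fold change of -0.13 did not pass (SE 0.06, limma adjusted p = 0.0917). Upper quartile rescaling, which moved the median log2 fold change of all genes there from 0.01 to -0.08, brought MNT to -0.22 (limma adjusted p = 0.0104). The difference between the hairpins was tested directly and passed, with a log2 ratio of -0.51 (SE 0.05, edgeR adjusted p = 7.85e-06).

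MGA rose to a similar extent with each hairpin. It lies on chromosome 15 from 41621134 to 41773081 on the plus strand. Its normalized counts were 1439, 1649.7 and 1709 with NS shRNA and 2387, 2247.5 and 2042 with ASAH1 shRNA #1, a log2 fold change of 0.48 (SE 0.08, limma adjusted p = 0.000562). In the other comparison it had 2603, 2674 and 2297 against 1553, 1791 and 1843, a log2 fold change of 0.55 (SE 0.08, limma adjusted p = 0.000182). In each comparison all knockdown libraries were above all controls. The ratio of the hairpins was 0.06 on the log2 scale (SE 0.08, edgeR adjusted p = 0.553).

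The MLX branch showed a fall of the shared partner and no detected change of MondoA. MLX, on chromosome 17 from 42567072 to 42573239 on the plus strand, had 2806, 2638 and 2949.8 normalized counts with NS shRNA and 2626, 2422 and 2298 with ASAH1 shRNA #1. The lowest control and the highest knockdown library were only 11.8 counts apart. The log2 fold change of MLX was -0.19 (SE 0.06, limma adjusted p = 0.0246). This call was lost without NS shRNA replicate 1 (limma adjusted p = 0.0592), NS shRNA replicate 3 (0.0616), ASAH1 shRNA #1 replicate 2 (0.0792) or ASAH1 shRNA #1 replicate 3 (0.0779), and in a fit without the trend (0.0599). The fall was clearer with ASAH1 shRNA #2, with 2027, 2265 and 1852 against 3028, 2863.5 and 3180.5 and a log2 fold change of -0.57 (SE 0.08, limma adjusted p = 9.73e-05). MLX was lower with ASAH1 shRNA #2 than with ASAH1 shRNA #1, by a log2 ratio of -0.38 (edgeR adjusted p = 0.00121).

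MLXIP, which encodes MondoA, lies on chromosome 12 from 122078756 to 122147344 on the plus strand. It had 3682, 3438 and 3627.5 normalized counts with NS shRNA, 3478, 3519 and 3487 with ASAH1 shRNA #1, and 3876, 3828 and 3787 against 3973, 3732 and 3911 with ASAH1 shRNA #2. The knockdown libraries lay inside the range of the controls in each comparison. The log2 fold changes were -0.04 (SE 0.05, limma adjusted p = 0.527) and -0.02 (SE 0.05, limma adjusted p = 0.814), and 5.13% and 2.04% of all genes tested changed by no more. Its relative MLXIPL, the ChREBP gene, had at most 82 reads in a library and passed in neither comparison with NS shRNA. Across the network, 9 of the 10 genes had groups that did not overlap in each comparison, where 69.2% of all genes did so with ASAH1 shRNA #1 and 70% with ASAH1 shRNA #2.

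To compare levels between genes, reads were divided by the library size and by the length of the Ensembl canonical transcript, which gives RPKM values. MYC was the most abundant of the 10 genes in each group, at 49.2 ± 1.10 RPKM (SD, n = 3) in the controls, 131 ± 1.56 with ASAH1 shRNA #1 and 61.6 ± 3.30 with ASAH1 shRNA #2. MAX came next, at 39.3 ± 1.80, 62.5 ± 2.17 and 56.0 ± 3.19 RPKM, and with ASAH1 shRNA #2 the libraries of MYC and MAX overlapped. MLX followed these in each group. MXD1 was last with NS shRNA, at 2.16 ± 0.19 RPKM, and reached 6.38 ± 0.34 with ASAH1 shRNA #1, above MXD4 at 5.65 ± 0.14 and MGA at 5.50 ± 0.41, whose libraries overlapped each other. With ASAH1 shRNA #2 it was again last, at 4.53 ± 0.067 RPKM. With NS shRNA the level of MXD4 had been 17.2 ± 0.84 RPKM. In the NS shRNA libraries, MXD3 (24.5 ± 2.60 RPKM) and MXI1 (19.9 ± 2.21) overlapped, and the other neighbours in the order did not. The order depends on the lengths. With the union of all its annotated exons MXD3 was 7th with NS shRNA and 10th with each hairpin, instead of 4th and 6th. With that length MLX also passed MAX in the NS shRNA libraries, and MXD1 was 6th with each hairpin, instead of 8th and 10th.

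**Figure D2:**
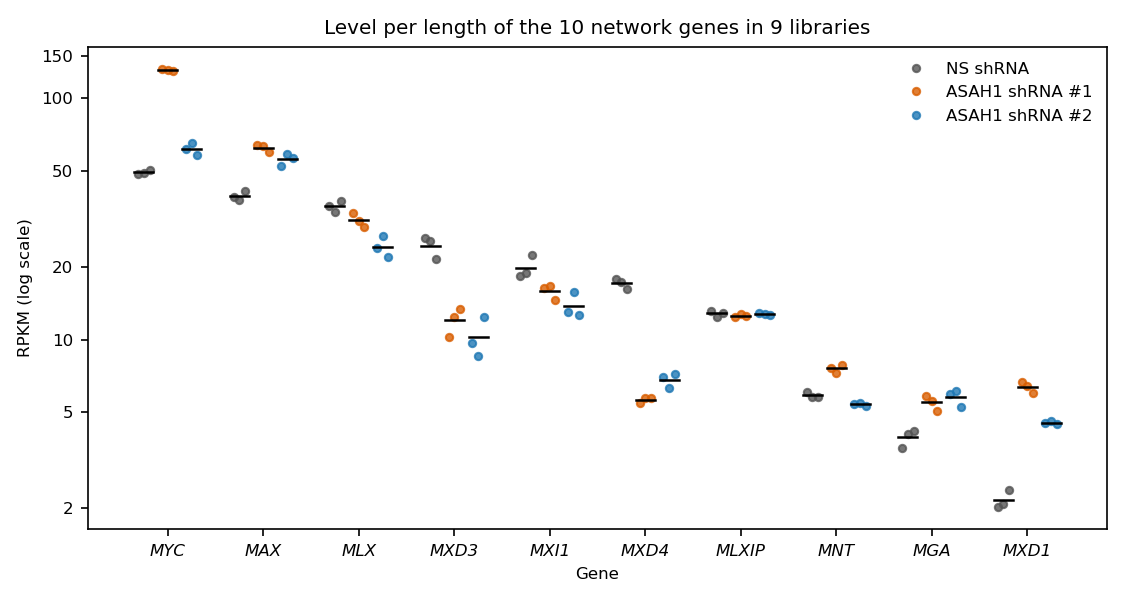
Level of each network gene in RPKM, on a log scale, in 3 libraries a group (NS shRNA in grey, ASAH1 shRNA #1 in orange, ASAH1 shRNA #2 in blue), with a bar for the mean and genes ordered by their mean with NS shRNA. MYC rises from 49.2 to 131 RPKM with ASAH1 shRNA #1 and to 61.6 with ASAH1 shRNA #2, MXD4 drops from 17.2 RPKM to 5.65 and 6.83, and MLXIP stays near 12.8.

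The levels per length of the MXD genes can be summed beside that of MYC, as a description with no test. The sum of MXD1, MXD3, MXD4 and MXI1 was 64.6, 63.9 and 62.6 RPKM in the NS shRNA libraries, 38.9, 41.2 and 39.7 with ASAH1 shRNA #1, and 34.2, 35.3 and 36.6 with ASAH1 shRNA #2. The antagonists together were thus lower in every knockdown library than in every control, although MXD1 rose. The ratio of MYC to this sum was 0.774 ± 0.030 (SD, n = 3) in the controls, 3.28 ± 0.113 with ASAH1 shRNA #1 and 1.74 ± 0.132 with ASAH1 shRNA #2. With MNT added to the antagonists the mean ratios were 0.708, 2.75 and 1.51, in the same order of groups. These ratios depend on the length taken for each gene. With the union of all annotated exons, an alternative chosen after seeing the data, the ratio of MYC to the MXD sum was 1.04, 3.83 and 2.06, so that MYC was above the sum in the controls too, and with MNT added it was 0.935, 3.18 and 1.77. The ratio of MYC to MAX was 1.25 ± 0.036 in the controls, 2.09 ± 0.049 with ASAH1 shRNA #1 and 1.10 ± 0.067 with ASAH1 shRNA #2. Every library with ASAH1 shRNA #1 was above the controls in this ratio, and every library with ASAH1 shRNA #2 was below them. With exon-union lengths the ratio of MYC to MAX was 2.38, 3.97 and 2.09, in the same order, with the same separation of the libraries.

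The makeup of the MXD sum also shifted. MXD1 made up 3.40% ± 0.36 of it in the controls, 15.98% ± 1.11 with ASAH1 shRNA #1 and 12.8% ± 0.53 with ASAH1 shRNA #2 (SD, n = 3). MXD4 made up 26.9% ± 0.88, 14.1% ± 0.22 and 19.3% ± 1.33. The share of MXD3 was 38.4% ± 3.49, 30.1% ± 3.74 and 28.8% ± 4.72, and its lowest control, at 34.4%, was just above the highest knockdown library, at 33.9%. That of MXI1 was 31.3% ± 4.001, 39.8% ± 2.89 and 39.0% ± 5.23, and its libraries overlapped between NS shRNA and ASAH1 shRNA #2. The sizes of these shares depend on the lengths. With exon-union lengths MXD1 made up 6.57%, 26.8% and 21.8%, MXD4 33.6%, 15.3% and 21.2%, MXD3 19.2%, 13.1% and 12.6%, and MXI1 40.6%, 44.8% and 44.4%, so MXI1 and MXD4, and not MXD3, led in the controls. With either length the mean share of MXD1 was higher and those of MXD3 and MXD4 were lower with each hairpin than in the controls. RNA levels do not give the amounts of the proteins, several of which are short-lived.

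**Figure D3:**
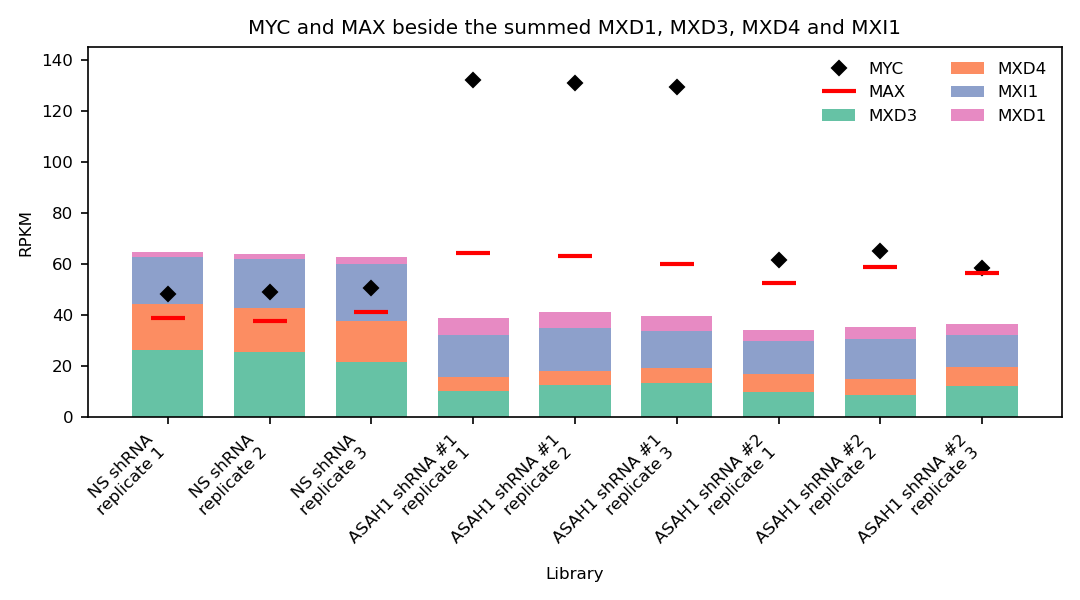
RPKM of MYC (diamonds) and MAX (red bars) in each of the 9 libraries, by canonical transcript length, beside the stacked RPKM of MXD3, MXD4, MXI1 and MXD1. With the canonical lengths plotted, MYC lies below the top of the stack in the 3 NS shRNA libraries and above it in the 6 knockdown libraries, whereas with exon-union lengths it is above the sum in the controls too (mean ratio 1.04), and the stack is 62.6 to 64.6 RPKM high in the controls and 34.2 to 41.2 in the others.

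Most genes of a list known to be activated by MYC were higher. The list held 41 genes, mostly of ribosome biogenesis, nucleotide synthesis and chaperone function, and 39 were tested. Not tested were EIF4A1, with a mean normalized count of 0.0 in each group, and SLC19A1, with 1.44 or less. Why so few of their reads were counted was not examined. With ASAH1 shRNA #1, 33 rose, 4 fell (DCTPP1, HSPD1, HSPE1 and LDHA) and 2 did not pass (PPAN and TFRC), with a median log2 fold change of 0.46, where the median of all genes was 0.00. Among all genes tested, 32.8% were higher and 33.3% lower with that hairpin, and 33.5% and 33.4% with ASAH1 shRNA #2. With ASAH1 shRNA #2, 37 rose, 0 fell and 2 did not pass (HSPE1 and LDHA), with a median of 0.66 against 0.01. At an unadjusted p below 0.05 from limma, 1 gene was lower there, HSPE1 (log2 fold change -0.21, limma adjusted p = 0.0677), and edgeR and DESeq2 gave 0 lower after adjustment. The 33 genes that rose with ASAH1 shRNA #1 rose with ASAH1 shRNA #2 too. Of all genes tested in both comparisons, which share their controls, 20% were higher in both. ODC1, the rate-limiting enzyme of polyamine synthesis whose E-box is printed above, rose from 2821 ± 193 to 9699 ± 793 normalized counts (SD, n = 3) with ASAH1 shRNA #1, a log2 fold change of 1.78 (limma adjusted p = 6.74e-08), and by 1.12 with ASAH1 shRNA #2 (limma adjusted p = 2.50e-07). RRP12, needed for the export and maturation of ribosomal subunits, had log2 fold changes of 1.82 and 0.79, and WDR43, a factor of small subunit processing, 1.31 and 1.21. The median was higher with ASAH1 shRNA #2, where MYC rose less. This list, like the others, was chosen with earlier results of these data known. It is described by its counts, and no test of the list was made.

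The E-box was more frequent among these genes. Of 35 with a RefSeq promoter window, 22 held CACGTG (62.9%), against 12.5% of the 10300 genes that were tested in both comparisons and had a window. The MYC-activated genes with the motif had a median log2 fold change of 0.52 with ASAH1 shRNA #1 and 0.76 with ASAH1 shRNA #2, and those without it 0.44 and 0.61, so the gap within the list was small. Over all genes tested with ASAH1 shRNA #1, 40.6% of those with the motif were higher and 29.7% lower, against 31.9% and 34.8% of those without it. With ASAH1 shRNA #2 the shares were 39.3% and 31.3% with the motif and 34.0% and 34.0% without. The medians of the log2 fold change, 0.08 and 0.06 with the motif and -0.02 and 0.01 without, differ little.

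Genes that MYC is known to repress did not fall together. Of 7 genes, CDKN2B had almost no reads, with a mean normalized count below 1 in each group, and 6 were tested. GADD45A, a growth arrest and DNA damage gene, rose from 1808 ± 210.2 to 15298 ± 1859 normalized counts with ASAH1 shRNA #1 (SD, n = 3), with log2 fold changes of 3.08 and 2.87 for the respective hairpins. CDKN1A, the p21 inhibitor of cyclin-dependent kinases, rose by 2.03 and 1.85, and THBS1, an inhibitor of angiogenesis, by 0.27 and 0.66. CDKN1B, another inhibitor of these kinases, had a log2 fold change of -0.24 with ASAH1 shRNA #1, which passed (limma adjusted p = 0.00346), and of -0.01 with ASAH1 shRNA #2, which did not (adjusted p = 0.885). NDRG1, a stress-responsive gene, fell by 1.83 with ASAH1 shRNA #1 and had -0.01 with ASAH1 shRNA #2 (limma adjusted p = 0.898). NDRG2 fell by 0.87 with ASAH1 shRNA #1 and rose by 0.72 with ASAH1 shRNA #2. In all, 3 rose and 3 fell with ASAH1 shRNA #1, and 4 rose, 0 fell and 2 did not pass with ASAH1 shRNA #2, where 0 were lower at an unadjusted p below 0.05 from limma and 0 by edgeR or DESeq2. Of all genes tested, 32.8% were higher and 33.3% lower with ASAH1 shRNA #1, and 33.5% and 33.4% with ASAH1 shRNA #2.

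Targets of MondoA and MLX were mostly higher, while MLXIP did not pass and MLX fell. TXNIP, an inhibitor of thioredoxin and of glucose uptake, rose from 6431 ± 79.9 to 19678 ± 198 normalized counts with ASAH1 shRNA #1 and from 6951 ± 108 to 23491 ± 354 with ASAH1 shRNA #2 (SD, n = 3). Its log2 fold changes were 1.61 (limma adjusted p = 5.25e-09) and 1.76 (limma adjusted p = 2.51e-09). ARRDC4, the arrestin-domain relative of TXNIP whose E-box is printed above, rose by 1.74 and 2.87, and KLF10, a zinc finger repressor, by 2.15 and 2.46. HK2, a hexokinase, rose by 0.19 and 0.54. PFKFB3, which makes an activator of glycolysis, fell by 0.47 with ASAH1 shRNA #1 and rose by 0.29 with ASAH1 shRNA #2. With ASAH1 shRNA #1, 4 of these 5 genes rose and 1 fell, where 32.8% of all genes tested were higher and 33.3% lower. With ASAH1 shRNA #2 all 5 rose, where 33.5% of all genes were higher and 33.4% lower.

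Of 14 corepressor genes, whose proteins are recruited by MXD proteins, 3 rose, 3 fell and 8 did not pass with ASAH1 shRNA #1. With ASAH1 shRNA #2, 7 rose, 1 fell and 6 did not pass. Among all genes tested, 32.8% rose and 33.3% fell with ASAH1 shRNA #1, and 33.5% and 33.4% with ASAH1 shRNA #2. HDAC2, a histone deacetylase, rose by 0.12 and 0.28 on the log2 scale, and SAP30, a SIN3 subunit, fell by 1.11 and 0.40. Of 19 coactivators and other cofactors of MYC, 7 rose, 5 fell and 7 did not pass with ASAH1 shRNA #1, and 9 rose, 6 fell and 4 did not pass with ASAH1 shRNA #2. ZBTB17, which encodes MIZ1, a factor through which MYC represses some genes, rose by 0.66 and 0.75, the acetyltransferase gene CREBBP by 0.69 and 0.67, and CCNT1, the cyclin of elongation factor P-TEFb, by 0.27 and 0.64. HCFC1, a MYC-binding host cell factor, fell by 0.52 and 0.53, KAT2A, an acetyltransferase, by 0.52 and 0.28, and SMARCB1, a chromatin remodelling subunit, by 0.48 and 0.40. Most counts of coactivators are near the background shares given above, but the 9 that rose with ASAH1 shRNA #2 are above theirs. The list was not tested.

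Genes that control how long MYC protein lasts also moved in both directions. Of 21, 6 rose, 9 fell and 6 did not pass with ASAH1 shRNA #1, and 10 rose, 7 fell and 4 did not pass with ASAH1 shRNA #2. The shares of all genes were 32.8% higher and 33.3% lower with ASAH1 shRNA #1 and 33.5% and 33.4% with ASAH1 shRNA #2. The 9 that fell with ASAH1 shRNA #1 and the 10 that rose with ASAH1 shRNA #2 are above these shares. The list was not tested. USP36, a nucleolar deubiquitinase that stabilises MYC, rose by 1.39 and 0.68 on the log2 scale. SET, an inhibitor of the phosphatase PP2A, rose by 0.38 and 0.87, and PPP2CA, a catalytic subunit of that phosphatase, by 0.23 and 0.39. SKP2, an F-box protein of a ubiquitin ligase for MYC, fell by 1.88 and 0.60, and PLK1, a mitotic kinase, by 0.48 and 1.05.

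In the Polycomb complex that holds MGA and MAX, 5 of 12 subunits and associated genes rose and 5 fell with ASAH1 shRNA #1. With ASAH1 shRNA #2, 5 rose and 4 fell. These counts stand beside the shares of all genes given above, and the list was not tested. RYBP, a RING1-binding subunit, rose by 0.56 and 0.89, E2F6, a repressor of the complex, by 0.43 and 0.75, and RING1, a ubiquitin ligase, by 0.36 and 0.26. EHMT2, the histone methyltransferase also called G9a, fell by 1.00 and 0.63, and TFDP2, a dimer partner of E2F factors, by 0.49 and 0.25. Among 12 related factors of the same structural class, 9 were tested. Of these, 3 rose and 4 fell with ASAH1 shRNA #1, and 2 rose and 4 fell with ASAH1 shRNA #2. This list was not tested either. MITF, a regulator of melanocytes and lysosomes, rose by 0.81 and 0.70, while SREBF1 and SREBF2, which control fatty acid and sterol synthesis, fell by 0.95 and 0.60 with ASAH1 shRNA #1 and by 0.81 and 0.30 with ASAH1 shRNA #2. USF1, which binds the same E-box, fell by 0.41 and 0.38.

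**Figure D4:**
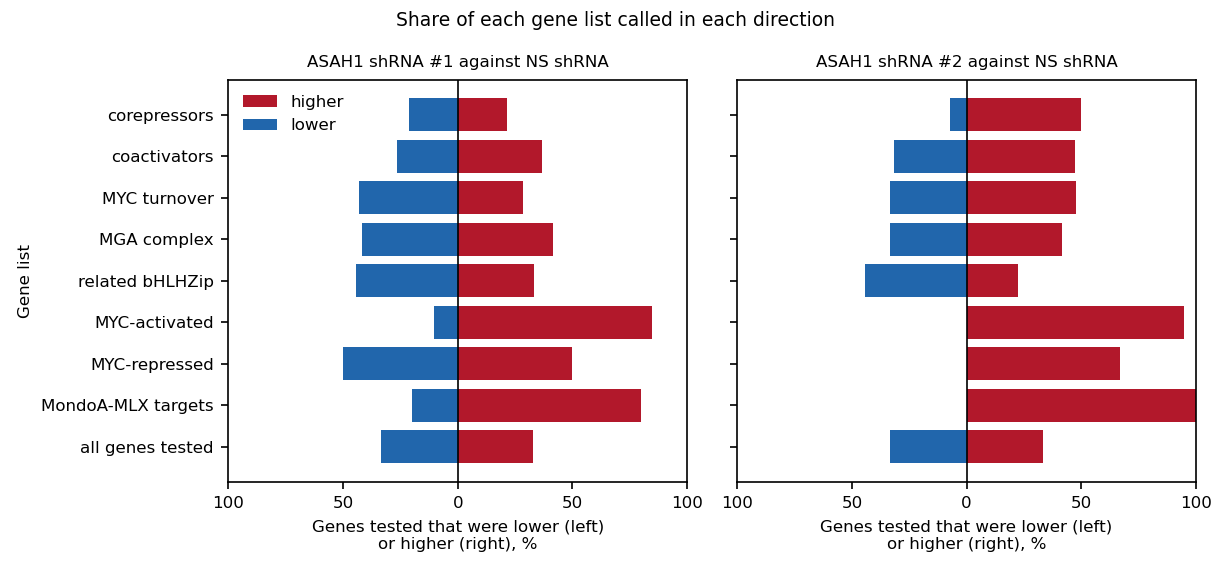
Share of the tested genes of each list that were lower (blue, left) or higher (red, right) with an adjusted p below 0.05 from limma, for each hairpin, beside all genes tested. Of the 39 MYC-activated genes, 33 and 37 were higher, and of the 5 MondoA and MLX targets 4 and 5, while the coactivators lie nearer to the 32.8% to 33.5% of all genes.

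The genes whose level most resembled that of MYC over the 9 libraries, by Pearson's r of log2 CPM among 14380 genes, were COG1 (r = 0.999), C9orf84 (0.998), PTPRR (0.998), ADAMTS6 (0.997) and MAPK8 (0.997). The 9 libraries form 3 groups and share their cell line, so such an r compares in large part 3 group levels, and it is given as a description. Like MYC, these genes had their highest mean level with ASAH1 shRNA #1. With that hairpin, the log2 fold changes against NS shRNA ran from 0.74 for MAPK8 to 3.60 for ADAMTS6. COG1 had mean levels of 28.0 CPM in the controls, 65.8 with ASAH1 shRNA #1 and 33.8 with ASAH1 shRNA #2, and MAPK8 had 46.0, 77.1 and 52.3. Of the network, MNT (r = 0.882), MXD1 (0.868) and MAX (0.816) were the most alike, MXD4 (-0.786) and MXD3 (-0.526) ran opposite, and MLX was near zero (-0.0092).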

How the data were processed

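The authors deposited 1 table per hairpin, holding also the NS shRNA libraries, with a normalized signal per gene and library, the read count divided by a DESeq2 size factor. Per the labels and methods, reads were trimmed with Trimmomatic 0.36, aligned to hg38 with STAR 2.7.1a, counted by strand on UCSC genes with htseq-count and normalized with DESeq2 1.28. Another methods paragraph names Bowtie2, RSEM, TMM and edgeR, and the labels name both oligo-dT selection and depletion of ribosomal RNA. The deposited log2 fold changes, standard errors, Wald statistics and p-values were not used. All per-sample columns were matched to libraries. Some symbols (28) had become dates and were read from the other table.

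Every value was a whole multiple of 1 read (tolerance 0.01), so reads were recovered, and those of the NS shRNA libraries had 0 differences between tables. Each hairpin was tested in its own table by limma 3.58.1 (R 4.3.3) on log2(value + 1), with a trend of variance with level and two-sided p-values, where the mean was at least 10, and with Benjamini-Hochberg adjustment at 0.05. Fold changes on this scale slightly understate those of low genes. The hairpins were compared by edgeR 4.0.16 (quasi-likelihood, TMM) on the reads of all 9 libraries. On the recovered reads, edgeR called 4696 genes higher and 4780 lower with ASAH1 shRNA #1, and 4783 and 4771 with ASAH1 shRNA #2. Lengths, positions and overlaps come from GENCODE v44 on hg38, promoters from RefSeq. The UCSC annotation was not used here.

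The members and the lists were chosen with earlier results of these data known. Named from each list are the 3 genes of largest average log2 fold change in each direction among those called alike in both comparisons, and all members of lists of up to 7 genes. Some genes that this rule covers are not reported here. Genes named as exceptions to a count, genes that overlap a member and the relatives MYCN, MYCL and MLXIPL were added after their values were seen. Also named are ASAH1 and the 5 genes most like MYC. Alternatives were pseudocounts of 0.1 and 5, no filter, a mean of at least 50, no trend, upper quartile rescaling, edgeR, DESeq2 1.42.0, all libraries in 1 limma fit, a block for the replicate number, and leaving out each library.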

Additional observations from a re-analysis of the deposited data

Results flagged for a closer look

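Of the 10 network genes, 6 differed between the cells with ASAH1 shRNA #1 and those with ASAH1 shRNA #2 in a direct test of that difference (edgeR's quasi-likelihood test on the reads of all 9 libraries, adjusted over 14381 genes, of which 63.9% differed). As log2 ratios of ASAH1 shRNA #2 to ASAH1 shRNA #1, with 3 libraries in each group, these were -1.10 for MYC (adjusted p = 8.32e-09), -0.51 for MNT (7.85e-06), -0.50 for MXD1 (5.74e-05), -0.38 for MLX (0.00121), -0.17 for MAX (0.0223) and 0.26 for MXD4 (0.00395). The libraries of the hairpins did not overlap in these 6, which were picked by a test of the same libraries. The share of all genes without such overlap was not computed. For MAX the hairpins were only 2.20 CPM apart at their nearest. Its call was lost without ASAH1 shRNA #1 replicate 1, ASAH1 shRNA #1 replicate 2 or ASAH1 shRNA #2 replicate 1, and with a block for the replicate number. For MYC, MXD1 and MAX the lower value with ASAH1 shRNA #2 was a smaller rise over NS shRNA, for MXD4 the higher value was a smaller fall, and for MLX the lower value was a larger fall. MNT rose with ASAH1 shRNA #1, and with ASAH1 shRNA #2 its log2 fold change against NS shRNA was -0.13 and did not pass.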

How the results depend on the processing

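The counts of network genes called in each direction stayed within 1.5 times their value in all 94 recomputed values. Of the 30 log2 fold changes of single network genes, 23 kept their direction and their side of the threshold under every alternative, and the others are MLX with ASAH1 shRNA #1, MNT and MLXIP with ASAH1 shRNA #2, and MAX, MXD3, MXI1 and MLXIP between the hairpins. MLXIP, which passed nowhere, changed sign with ASAH1 shRNA #2 without NS shRNA replicate 1 (0.0037 on the log2 scale, with a range from -0.0415 to 0.0037 over the libraries left out) and between the hairpins when genes needed a mean of 50 (-0.0065). The replicate numbers did not pair the libraries, since same-numbered libraries correlated between -0.303 and 0.199 in their deviations from the group means. With the replicate number as a block, MLX lost its call with ASAH1 shRNA #1 (adjusted p = 0.0725 from limma), and so did MAX between the hairpins (adjusted p = 0.0507 from edgeR). Upper quartile rescaling moved all genes with ASAH1 shRNA #2, to a median log2 fold change of -0.08, and the split of calls to 4004 higher and 5522 lower. Of 32 list counts, 30 stayed within 1.5 times their value, and with ASAH1 shRNA #2 the lower corepressors went from 1 to 2 (a mean of at least 50, upper quartile rescaling, or all libraries in 1 fit) and the lower MYC-activated genes from 0 to 1 (upper quartile rescaling, or without replicate 3 of NS shRNA or of ASAH1 shRNA #2). MYCN had at most 5 reads in a library and MYCL at most 16, while each of the 10 genes had at least 273 in every library.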
